A study of Mus musculus with 8 samples.

Results

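Trim proteins are a large family defined by a RING domain, B-box zinc fingers and a coiled coil, and most of them act as E3 ubiquitin ligases. Many are made in response to interferon and act in antiviral defence, either on viral components or on the sensors and adaptors that switch interferon production on and off. Irf7, the transcription factor targeted in the study, drives type I interferon genes and many genes of the interferon response. The series asks about Irf7 in ageing stromal cells of fat. The genes described are 10 interferon-linked family members chosen by name: Trim30a, Trim30d, Trim12a, Trim12c, Trim34a, Trim14, Trim21, Trim25, Trim26 and Trim56. Of the 10, 9 had a probe set under their symbol in the probe gene table, 1 each, among 19505 named genes. No probe set is named for Trim34a, so its expression was not analysed here. Trim14 lacks the RING domain, so the group is not made of E3 ligases alone.

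Total RNA of mesenchymal stromal cells from the inguinal fat pad of male FVB mice, aged 12 months, was labelled with biotin and hybridised to Affymetrix arrays. All cells had been infected with the lentiviral vector pLKO.1, which carried a short hairpin RNA against Irf7 (shIRF7, 4 arrays), a scrambled hairpin (scramble, 2 arrays) or no insert (empty vector, 2 arrays). The labels do not say whether the replicates came from separate cultures, mice or infections, and they name a single Irf7 hairpin treatment. P-values therefore measure only how these arrays vary, possibly for technical reasons, and the small number of arrays limits the precision. Values are the log2 expression values that the authors deposited. Irf7 measured 4.42, 5.66, 6.47 and 6.79 in shIRF7 replicates 1 to 4, against 9.56 and 9.76 in scramble and 9.55 and 9.61 in empty vector. The targeted transcript was thus lower on every shIRF7 array than on every control array. Its log2 difference was -3.79 (SE 0.48, adjusted p = 0.0692 in limma). Irf7 exceeded the 95th percentile of the array's negative control probe sets on 0 of 4 shIRF7 arrays and on 4 of 4 control arrays. The size of its difference is therefore uncertain. With the shIRF7 arrays held at no less than those percentiles Irf7 was at least 2.34-fold lower.

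Medians of the 5222 negative control probe sets lay between 4.18 and 4.56, and their 95th percentiles between 7.93 and 8.72. The negative control medians followed the replicate number in all groups (4.18 to 4.26 for replicate 1 and 4.55 to 4.56 for replicate 2). Control arrays also lay closer by number than by label. The SD of the difference over genes was 0.325 between scramble replicate 2 and empty vector replicate 2, against 0.917 between the 2 empty vector arrays. For that reason each member's difference is also given among arrays numbered 1 and among arrays numbered 2. The shIRF7 arrays did not follow the number over genes. Deviations from the group means correlated at -0.31 to -0.16 between shIRF7 and control arrays of the same number. Differences within a number are therefore not those of known pairs. Between shIRF7 replicates 2 and 3 the SD was 0.322, the lowest of all pairs of arrays. These arrays may not be independent replicates, so a fit with the pair averaged is among the alternatives. Of 11 measured stromal markers, 7 exceeded that 95th percentile (background) on all 8 arrays (Pdgfrb, Eng, Cd44, Itgb1, Col1a1, Col1a2 and Vim). Dcn exceeded it on 6 arrays, Thy1 on 2, and Nt5e and Lum on none. Of 38 measured markers of leukocytes, endothelium, adipocytes, mural cells and epithelium, 37 exceeded it on no array, among them Ptprc, Pecam1, Adipoq and Epcam. The remaining marker, Fabp4 of adipocytes, exceeded it on 4 of 8 arrays. The summed level of the stromal markers was 19.01 to 19.13 (log2) in shIRF7 and 19.24 to 19.56 in the controls. That of the leukocyte markers was 6.99 to 7.16 in shIRF7 and 7.03 to 7.30 in the controls. The 7 stromal markers above background on all 8 arrays differed unevenly between shIRF7 and the controls. Cd44, Col1a1, Col1a2 and Eng had log2 differences of -1.34, -0.88, -0.70 and -0.42. Itgb1, Vim and Pdgfrb had -0.10, -0.055 and 0.019. The part of the lower stromal sum in the differences below was not tested, and in such bulk samples fewer cells of a type and less RNA per cell cannot be told apart.

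All 9 members had a negative difference between shIRF7 and the controls, and in 5 of them (Trim30a, Trim30d, Trim12a, Trim12c and Trim25) the 4 shIRF7 values all lay below the 4 control values. Such a separation downwards was seen in 2.8% of all genes, and a negative difference in 49.7%. Trim30a stood far from the others with a log2 difference of -4.62. Trim12a, Trim30d and Trim12c differed by between -1.55 and -1.34, and the other 5 by between -0.83 and -0.29. The median over the 9 members was -0.83, beside 0.0017 over all genes. None of the 9 passed the threshold of limma (adjusted p under 0.05 over all genes, Benjamini-Hochberg), which 0.0308% of genes passed downwards. At an unadjusted limma p under 0.05, 5 of 9 members were lower and 0 higher, beside 4.1% of all genes lower and 4.01% higher. The members had been listed with earlier results of these data known, so these counts describe them and are not independent evidence for the group. Trim25 and Trim56 were above background on all 8 arrays. Trim30d, Trim12a, Trim14, Trim21 and Trim26, 5 of the 9, were above it on none, so no fold is given for these 5. Trim30a and Trim12c were above it in the controls more often than in shIRF7, as given below.

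**Figure D1:**
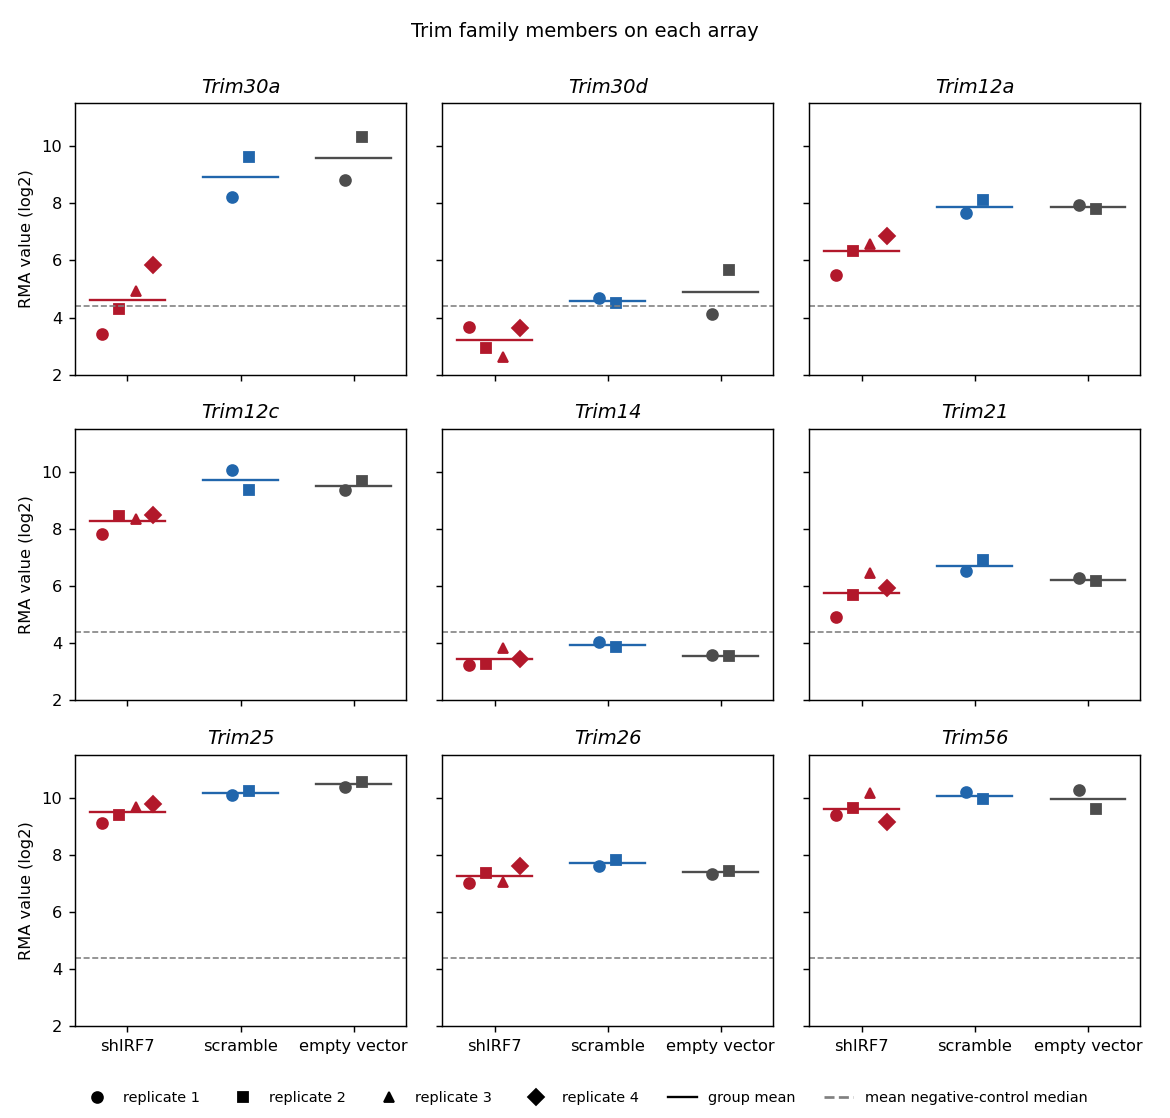
Deposited log2 values of the 9 measured members on each array, by group, with replicate numbers as symbols, group means as solid lines and the mean of the negative control medians (4.40) as a dashed line. The shIRF7 and control arrays are separate for Trim30a, Trim30d, Trim12a, Trim12c and Trim25, while Trim14 lies below the dashed line on all 8 arrays.

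The 4 measured members with the greatest differences as deposited lie in 1 gene block. That ranking rests partly on values under the negative control medians. With values held at no less than those medians Trim30d differed by -0.38. This was less than Trim25 (-0.83), Trim21 (-0.71) and Trim56 (-0.42), which lie outside the block. In the RefSeq gene table of assembly GRCm38.p6, 11 Trim genes follow one another on mouse chromosome 7 from Trim6 to the pseudogene Trim30e-ps1, and 5 of the members (Trim34a, Trim12a, Trim12c, Trim30a and Trim30d) are among them. Trim30a and Trim30d are direct neighbours there, while Trim34b lies between Trim12a and Trim12c, and Trim30b and Trim30c lie between Trim12c and Trim30a. Mouse Trim30a is an interferon-induced protein known to restrain NF-kappaB activation by promoting the loss of the adaptors TAB2 and TAB3. Trim30a (probe set TC0700003943.mm.2) measured 3.43, 4.30, 4.93 and 5.84 in shIRF7, against 8.21 and 9.64 in scramble and 8.83 and 10.32 in empty vector. The groups were 2.37 apart at their nearest arrays, and within each control group replicate 2 was the higher array. Means were 4.63 ± 1.02 in shIRF7 and 9.25 ± 0.92 in the controls (SD, n = 4 each, the controls being 2 scramble and 2 empty vector arrays). The log2 difference was -4.62 (SE 0.60, 95% interval -6.01 to -3.24), and its adjusted p in limma was 0.0692. Among arrays numbered 1 Trim30a differed by -5.09, and among those numbered 2 by -5.68. In 2 of 4 shIRF7 arrays Trim30a lay below the array's negative control median, so the 24.7-fold difference of the means is uncertain in size. With values held at no less than that median it was 20.7-fold. Trim30a was above background on 0 of 4 shIRF7 arrays and on 3 of 4 control arrays, and with the shIRF7 arrays held at no less than their 95th percentiles of negative controls it was at least 1.81-fold lower. Trim30a passed the threshold only in the fit that took both controls as 1 group of 4 (adjusted p = 0.0299), and its adjusted p ranged from 0.0299 to 0.316 over the alternatives. With shIRF7 replicates 2 and 3 averaged its adjusted p in limma was 0.284.

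Trim30d is a close relative of Trim30a and its neighbour. Trim30d (probe set TC0700003946.mm.2) measured 3.69, 2.93, 2.62 and 3.63 in shIRF7, against 4.68 and 4.50 in scramble and 4.11 and 5.67 in empty vector. No shIRF7 value reached the lowest control, but all 4 lay below their arrays' negative control medians, as did 2 of the 4 controls. The log2 difference was -1.52 (SE 0.38, adjusted p = 0.324). With all values held at no less than the negative control median it was -0.38, so the size of the Trim30d difference is not fixed by these arrays. Among arrays numbered 1 it was -0.71 and among those numbered 2 it was -2.15. Probes for Trim30a and Trim30d, like those for Trim12a and Trim12c, may not fully separate these near-copies, so the values of each pair may not be independent.

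The promoters of the Trim30 pair are shown because both genes lie in the same block and hold the same match to an interferon response element in the same setting. Interferon response elements are bound by IRF proteins and by the STAT-IRF9 complex, and their core was searched for as GAAA, any 2 bases and GAAA again, on both strands (TTTC, any 2 bases and TTTC on the other), overlapping matches included. The sequences are RefSeq's, of build GRCm38.p6, 250 bases before to 50 bases after the gene's start, 5′ to 3′ on the gene's strand, with matches in capitals.
Trim30a promoter, chr7:104465144-104465443, minus strand: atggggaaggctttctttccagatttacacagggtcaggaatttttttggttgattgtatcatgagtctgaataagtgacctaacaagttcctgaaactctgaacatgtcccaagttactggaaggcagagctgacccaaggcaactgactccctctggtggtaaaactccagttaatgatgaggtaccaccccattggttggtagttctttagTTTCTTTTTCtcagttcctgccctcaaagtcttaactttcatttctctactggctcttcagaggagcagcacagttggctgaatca
Trim30d promoter, chr7:104507800-104508099, minus strand: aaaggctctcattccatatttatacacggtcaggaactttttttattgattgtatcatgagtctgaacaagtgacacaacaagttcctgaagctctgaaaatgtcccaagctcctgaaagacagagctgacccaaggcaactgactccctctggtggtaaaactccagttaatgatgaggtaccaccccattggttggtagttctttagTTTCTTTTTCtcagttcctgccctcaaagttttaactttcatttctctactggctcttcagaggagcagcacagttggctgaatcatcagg
The match TTTCTTTTTC began 36 bases before the start of Trim30a and 41 bases before that of Trim30d. Over 295 aligned bases 276 were identical between these promoters (93.6%). A second annotated start of Trim30a also held TTTCTTTTTC. Of 27025 mouse genes with a promoter listed there, 3.99% held the motif in at least 1 such window.

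Trim12a and Trim12c are mouse relatives of the primate restriction factor TRIM5, which recognises incoming retroviral capsids. Trim12a (probe set TC0700003938.mm.2) measured 5.50, 6.32, 6.59 and 6.86 in shIRF7, against 7.65 and 8.11 in scramble and 7.94 and 7.79 in empty vector. Every shIRF7 array lay below every control, and the 4 controls were within 0.46 of each other. The log2 difference of Trim12a was -1.55 (SE 0.30, 95% interval -2.25 to -0.86, adjusted p = 0.188). Trim12c (probe set TC0700003940.mm.2) measured 7.84, 8.45, 8.35 and 8.50 in shIRF7, against 10.07 and 9.38 in scramble and 9.36 and 9.69 in empty vector. Its groups did not overlap either, and the shIRF7 mean was 8.29 ± 0.30 against 9.62 ± 0.33 in the controls (SD, n = 4 each). The log2 difference of Trim12c was -1.34 (SE 0.22, 95% interval -1.86 to -0.82, adjusted p = 0.155). Trim12c was above background on 1 of 4 shIRF7 arrays and on 4 of 4 control arrays, so its level in shIRF7 was mostly not measured above background and no fold is given. Within replicates 1 and 2 Trim12a differed by -2.30 and -1.63, and Trim12c by -1.88 and -1.08.

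The Trim12 promoters are shown as the second pair of near-copies in the block, with the same motif in capitals.
Trim12a promoter, chr7:104315446-104315745, minus strand: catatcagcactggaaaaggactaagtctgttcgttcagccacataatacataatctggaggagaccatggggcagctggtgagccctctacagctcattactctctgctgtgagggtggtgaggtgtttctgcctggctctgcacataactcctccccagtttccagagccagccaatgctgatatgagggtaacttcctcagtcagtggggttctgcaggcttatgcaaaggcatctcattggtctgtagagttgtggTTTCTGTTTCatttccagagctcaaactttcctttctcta
Trim12c promoter, chr7:104353300-104353599, minus strand: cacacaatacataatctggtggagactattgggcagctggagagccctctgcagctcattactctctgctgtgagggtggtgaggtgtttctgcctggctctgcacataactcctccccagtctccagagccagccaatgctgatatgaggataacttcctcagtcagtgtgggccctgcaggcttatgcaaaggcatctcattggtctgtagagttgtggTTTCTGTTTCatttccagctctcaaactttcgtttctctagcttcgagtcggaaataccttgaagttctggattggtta
Both held TTTCTGTTTC, which began 29 bases before the start of Trim12c. In Trim12a it lay just after the annotated start. Over 260 aligned bases 247 were identical (95%).

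Of the other genes in the block, Trim6, Trim30b and Trim30e-ps1 were measured. They are given as neighbours and were not among the 10. Trim6 averaged 4.08 in shIRF7 and 4.87 in the controls (log2 difference -0.79, adjusted p = 0.639). Trim30b averaged 3.05 in shIRF7 and 3.45 in the controls (-0.39, adjusted p = 0.627), and Trim30e-ps1 averaged 2.70 in shIRF7 and 3.15 in the controls (-0.45, adjusted p = 0.555). Trim30b and Trim30e-ps1 lay below the negative control medians in both groups, so their values say little of a level. Trim6 was above background on no array. Trim5, Trim34b and Trim30c, like Trim34a, had no probe set named here.

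**Figure D2:**
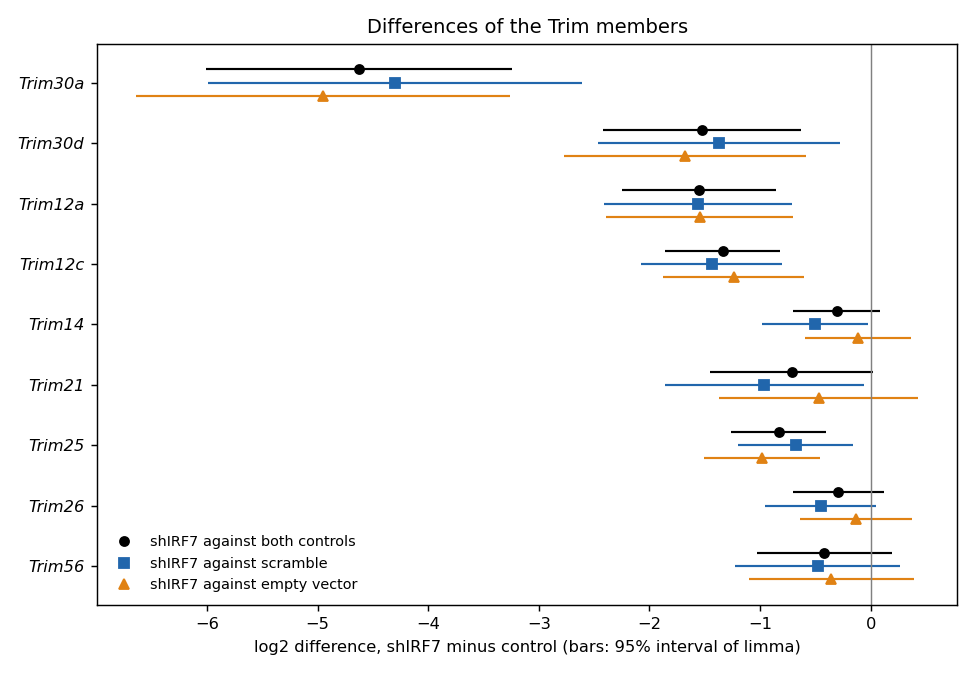
Log2 differences of the 9 members between shIRF7 and both controls (circles), scramble (squares) and empty vector (triangles), with 95% intervals of limma as bars. All 27 points lie below 0; for Trim30a, Trim30d, Trim12a, Trim12c and Trim25 all 3 unadjusted intervals exclude 0.

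Trim25 attaches ubiquitin chains in the activation of the RNA sensor RIG-I (Rigi), and Trim14 is an adaptor at MAVS, the mitochondrial protein that RIG-I signals through. Trim25 (probe set TC1100001386.mm.2) measured 9.10, 9.38, 9.68 and 9.79 in shIRF7, against 10.10 and 10.23 in scramble and 10.38 and 10.56 in empty vector. All 4 shIRF7 values lay below all 4 controls, and Trim25 was above background on all 8 arrays. Means were 9.49 ± 0.31 in shIRF7 and 10.32 ± 0.20 in the controls (SD, n = 4 each). The log2 difference was -0.83 (SE 0.18, 95% interval -1.26 to -0.40, 1.78-fold, adjusted p = 0.258), and it was -1.14 among arrays numbered 1 and -1.02 among those numbered 2. The interferon response core was not found in the Trim25 promoter window.

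Trim14 (probe set TC0400002601.mm.2) measured 3.26, 3.28, 3.84 and 3.45 in shIRF7, against 4.03 and 3.88 in scramble and 3.61 and 3.54 in empty vector. Every one of these values was under its array's negative control median, and with values held at that median the difference was 0.0093. The groups overlapped through shIRF7 replicate 3 (log2 difference -0.31, adjusted p = 0.719).

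Trim56 is known as a ligase for the DNA-sensing proteins cGAS and STING. Trim56 (probe set TC0500003433.mm.2) measured 9.39, 9.63, 10.18 and 9.14 in shIRF7, against 10.19 and 9.94 in scramble and 10.28 and 9.60 in empty vector. The groups overlapped, with shIRF7 replicate 3 level with the upper controls, although Trim56 was above background on all 8 arrays. The log2 difference was -0.42 (SE 0.26, 95% interval -1.03 to 0.19, adjusted p = 0.76). It was -0.84 among arrays numbered 1 and -0.14 among those numbered 2. Leaving out shIRF7 replicate 4 gave -0.27, and leaving out empty vector replicate 1 gave -0.25. The motif was not found in its promoter window.

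Trim21 is the cytosolic antibody receptor that sends antibody-coated virus to the proteasome, and Trim26 is reported to promote the loss of nuclear IRF3, a close relative of Irf7. Trim21 (probe set TC0700003862.mm.2) measured 4.92, 5.68, 6.47 and 5.95 in shIRF7, against 6.52 and 6.91 in scramble and 6.27 and 6.18 in empty vector. Of the shIRF7 arrays 3 lay below every control, and replicate 3 lay above both empty vector arrays. The log2 difference was -0.71 (SE 0.32, 95% interval -1.45 to 0.020, adjusted p = 0.627), and -0.44 without shIRF7 replicate 1. Within replicates 1 and 2 Trim21 differed by -1.47 and -0.87. Trim26 (probe set TC1700000745.mm.2) measured 7.02, 7.35, 7.04 and 7.62 in shIRF7, against 7.59 and 7.82 in scramble and 7.34 and 7.44 in empty vector. Its groups overlapped: shIRF7 replicate 4 lay above both empty vector arrays and above scramble replicate 1. The log2 difference of Trim26 was -0.29 (SE 0.18, 95% interval -0.70 to 0.12, adjusted p = 0.751), and it was -0.45 among arrays numbered 1 and -0.28 among those numbered 2.

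In all, 7 of the 9 members with a promoter in the table held the motif, beside 3.99% of 27025 genes. Trim25 and Trim56 did not. The 7 include the near-copies Trim30a and Trim30d, and Trim12a and Trim12c, so they are not 7 independent occurrences. Trim14 had no entry. The remaining 3 with a match are shown as windows of 25 bases on either side of it (fewer where the promoter window ended), since Trim21 and Trim26 carry the element as overlapping copies and Trim34a, another gene of the block, carries it at the same distance from its start as Trim12a.
Trim34a, chr7:104244442-104244501, plus strand: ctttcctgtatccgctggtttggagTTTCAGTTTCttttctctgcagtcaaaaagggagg
Trim21, chr7:102565433-102565494, minus strand: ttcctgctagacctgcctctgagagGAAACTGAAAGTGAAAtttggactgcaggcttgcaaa
Trim26, chr17:36836961-36837026, plus strand: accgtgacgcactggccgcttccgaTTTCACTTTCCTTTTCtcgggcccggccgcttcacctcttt
In Trim34a and Trim21 the matches followed the annotated start, and in Trim26 the first began 160 bases before it. Of 38 other Trim genes with a listed promoter, 1 held the motif. The palindromic STAT motif TTCNNNGAA was found in 0 of the 9 members' windows, beside 9.55% of all genes. The members with a match that were measured differed by -4.62 (Trim30a), -1.55 (Trim12a), -1.52 (Trim30d), -1.34 (Trim12c), -0.71 (Trim21) and -0.29 (Trim26), and the 2 without one by -0.83 (Trim25) and -0.42 (Trim56). Whether the motif goes with the size of the difference was not tested. A match is a description of these letters and no evidence of binding in these cells.

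**Figure D3:**
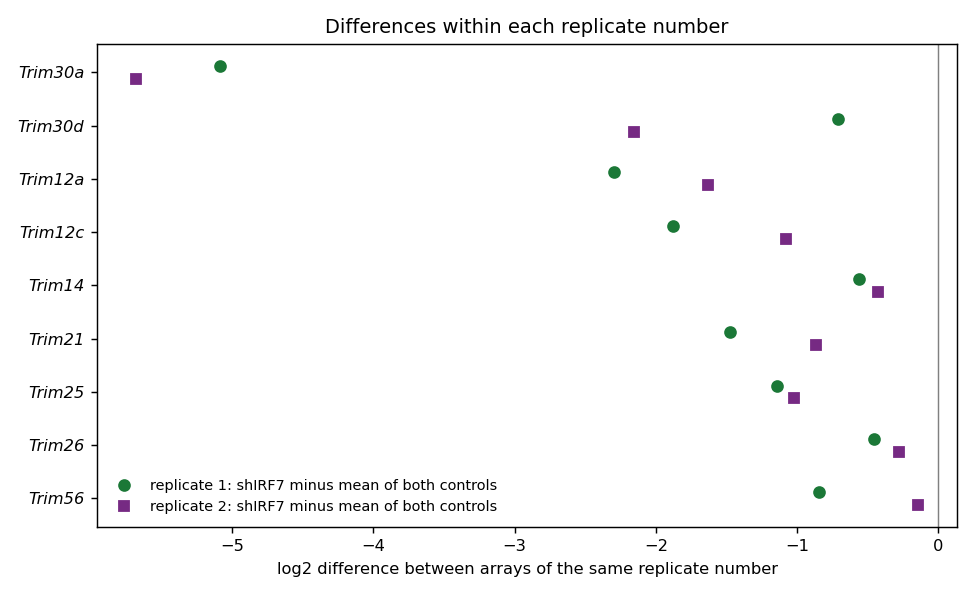
Log2 differences of the 9 members between the shIRF7 array and the mean of the scramble and empty vector arrays of the same replicate number, for replicate 1 (circles) and replicate 2 (squares). All 18 points lie below 0, with Trim30a at -5.09 and -5.68 and Trim56 nearest to 0 at -0.14 in replicate 2.

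Within both replicate numbers all 9 members were lower in shIRF7, beside 20% of all genes. The median over the members was -1.14 within replicate 1 and -1.02 within replicate 2. Set against each member's control mean, the median over the 9 members was -1.22, -0.94, -0.64 and -0.86 on shIRF7 replicates 1 to 4, against 0.045 and 0.12 on the scramble arrays and -0.20 and -0.080 on the empty vector arrays. On shIRF7 replicates 1 and 2 all 9 members lay below their control means, on replicate 4 this held for 8 and on replicate 3 for 6. Irf7 itself varied over 2.37 on the log2 scale among the 4 shIRF7 arrays, on 0 of which it was above background. Trim30a, Trim12a and Trim25 put the 4 arrays in the same order as Irf7, 3 of the 9 members, beside 4.38% of all genes. That count was chosen after the values had been seen and rests on 4 arrays.

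The comparison with each control alone asks whether a difference depends on the scrambled hairpin, and the comparisons share the shIRF7 arrays. Against scramble the median over the members was -0.96, beside 0.0067 over all genes, and 7 of 9 members lay wholly below scramble, beside 7.61% of genes. Against empty vector the median was -0.98, beside 0.0044 over all genes, and 5 of 9 lay wholly below, beside 6.96%. No member passed in either comparison in limma, beside 0.00513% of genes lower than in scramble and 0% lower than in empty vector. At an unadjusted p under 0.05, 7 of 9 were lower than in scramble (beside 3.27% of genes) and 5 of 9 lower than in empty vector (beside 3.3%). Trim14 and Trim21 lay wholly below scramble but not below empty vector. Trim21 differed by -0.96 from scramble and by -0.47 from empty vector, and Trim14 by -0.50 and by -0.12. The sizes against empty vector depended on single arrays. Trim21 was at -0.19 without shIRF7 replicate 1 and at -0.71 without shIRF7 replicate 3. Trim14 was at -0.050, -0.057 and -0.24 without shIRF7 replicate 1, 2 or 3. The difference between these pairs is that of scramble against empty vector, 0.49 for Trim21 (adjusted p = 1.00) and 0.38 for Trim14 (adjusted p = 1.00). Between scramble and empty vector 3 members were lower and 6 higher, with a median of 0.12 beside -0.0036 over all genes, and none passed in limma. At an unadjusted p under 0.05 there were 0 of 9 in that comparison, beside 1.15% of all genes lower and 0.779% higher. Its 2 against 2 arrays separate easily: 12.3% of all genes lay wholly lower and 10.5% wholly higher in scramble, and of the members 1 and 3.

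**Figure D4:**
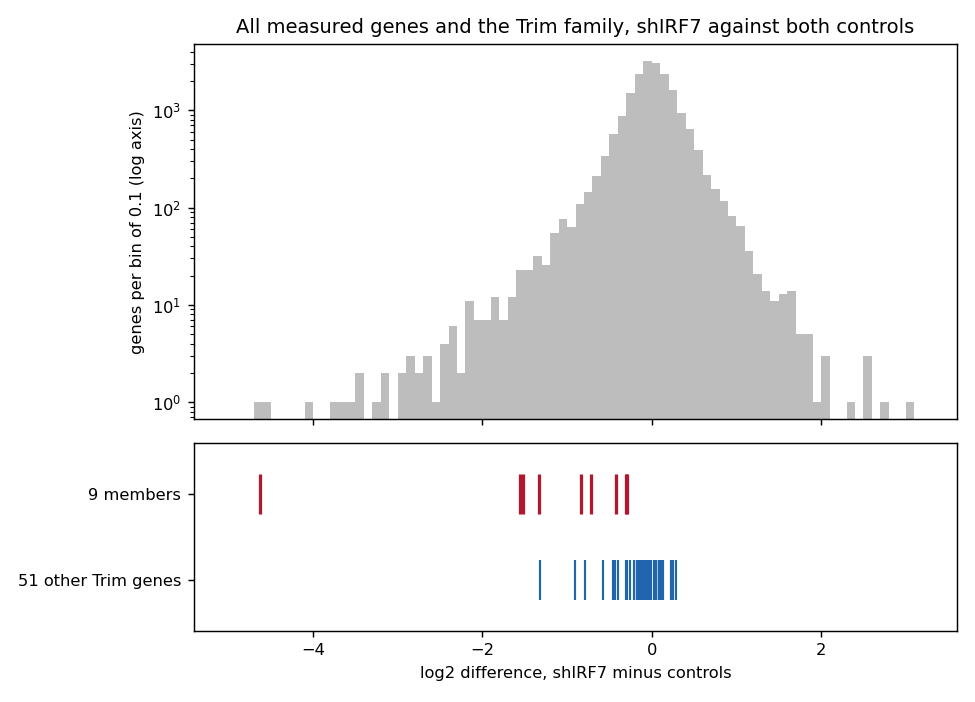
Top, number of genes per bin of log2 difference between shIRF7 and both controls for all 19505 genes, on a log axis; bottom, the 9 members and 51 other Trim genes as ticks on the same scale. Trim30a lies at -4.62, a difference whose size is uncertain because its shIRF7 values are not above background, and the other Trim genes lie between -1.32 and 0.28.

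The rest of the Trim family gave a measure of how far the differences extend. Over 51 other measured Trim genes the median log2 difference was -0.055, with 35 lower and 16 higher, and none passed in limma. At an unadjusted p under 0.05, 4 of the 51 were lower and 0 higher, beside 4.1% and 4.01% of all genes. Wholly below the controls lay 4, beside 2.8% of all genes. The difference between the 9 members and these 51 genes was not tested. Trim66, a chromatin-associated family member, averaged 5.30 in shIRF7 and 6.62 in the controls (log2 difference -1.32, adjusted p = 0.432). Within replicates 1 and 2 Trim66 differed by -2.25 and -0.46. Trim16 averaged 9.92 in shIRF7 and 10.83 in the controls (-0.90, adjusted p = 0.572), and Trim6 is given above. At the other end, Trim10 (0.28, adjusted p = 0.724), the muscle membrane repair gene Trim72 (0.25, adjusted p = 0.764) and the transcriptional cofactor Trim24 (0.22, adjusted p = 0.794) had the greatest positive differences. Trim10 was under the negative control medians on all 8 arrays. Trim66, Trim6 and Trim72 were above background on no array either, while Trim16 and Trim24 were above it on all 8. Of the 51 genes 39 were above background on no array, so a difference in most of them could have gone undetected.

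Among genes whose proteins the Trim members act on or with, the RNA sensors had the greatest differences. Over 26 measured of 28 listed, the median was 0.12, with 10 lower and 16 higher, and none passed in limma. At an unadjusted p under 0.05, 4 were lower and 1 higher, beside 4.1% and 4.01% of all genes. The 1 higher was Mavs (log2 difference 0.37, adjusted p = 0.559 in limma), which was above background on all 8 arrays. Ifih1, the RNA sensor MDA5, measured 7.38 to 8.38 in shIRF7 and 9.39 to 10.40 in the controls (log2 difference -2.11, adjusted p = 0.0737). Dhx58, a regulator of these sensors, measured 5.75 to 7.03 in shIRF7 and 7.15 to 8.88 in the controls (-1.92, adjusted p = 0.174). Rigi, the sensor on which Trim25 acts (Ddx58 on the array), measured 10.24 to 10.96 in shIRF7 and 10.96 to 11.74 in the controls (-0.96, adjusted p = 0.26). Of the 26 genes, 3 lay wholly below the controls and 1 (Mavs) wholly above, beside 547 and 503 of all 19505 genes. The 3 below were Ifih1, Dhx58 and Rigi, which had been named for their large differences. For Rigi the groups all but touched. Within replicates 1 and 2 Rigi differed by -1.10 and -1.14. Rigi was above background on all 8 arrays, Ifih1 on 5 and Dhx58 on 2, so the sizes for Ifih1 and Dhx58 are uncertain.

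Over 19 measured of 20 genes of interferon production and signalling the median was -0.18, with 11 lower and 8 higher. None passed in limma. At an unadjusted p under 0.05, 5 were lower and 0 higher, beside 4.1% and 4.01% of all genes. The 5 include Irf7, the targeted gene, and Usp18, which is counted again among the ISG15 conjugation genes below. Beside Irf7, Usp18, which removes ISG15 and damps the receptor, measured 7.24 to 9.73 in shIRF7 and 10.86 to 12.09 in the controls (-3.66, adjusted p = 0.148). Irf9, the DNA-binding subunit of the STAT-IRF9 complex, measured 7.59 to 9.29 in shIRF7 and 9.80 to 10.18 in the controls (-1.40, adjusted p = 0.319). Jak1 (-1.35, adjusted p = 0.0692 in limma) and Jak2 (-1.04, adjusted p = 0.111) were above background on all 8 arrays. The ISG15 conjugation genes, of which Trim25 is also a ligase, had a median of -1.58 over 5 genes, all 5 lower and none past the threshold in limma. All 5 had an unadjusted p under 0.05, beside 4.1% of all genes lower at that level. Isg15 differed by -2.68 and the ligase Herc6 by -1.58 (adjusted p = 0.174 and 0.173). Of the 8 arrays, Isg15 was above background on 1, Usp18 on 5, Herc6 on 6 and Irf9 on 7. The sizes of these differences are therefore uncertain, most of all for Isg15.

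The genes whose pattern over the 8 arrays was most like a member's were looked for among 6518 genes above the mean 95th percentile of the negative controls. For Trim30a they were Ero1a, Ifih1 and Trim25 (Pearson r 0.985, 0.978 and 0.971). For Trim12a they were Xaf1, Irf9 and Rtp4 (0.991, 0.978 and 0.977), and for Trim25 they were Ero1a, Tlr3 and H2-D1 (0.971, 0.963 and 0.963). Those of Trim12c were Kbtbd2, Ifih1 and St3gal2 (0.960, 0.948 and 0.947), and those of Trim30d Nacc1, Pds5a and Aebp2 (0.949, 0.931 and 0.925). For Trim21 they were Nfe2l2, Fam114a2 and Pla2g15 (0.935, 0.931 and 0.928), and for Trim56 Myo9b, Cotl1 and Kdm2a (0.931, 0.926 and 0.921). The greatest r was 0.928 for Trim26 (Mkln1, then Rnf5 and Dyrk2) and 0.908 for Trim14 (Glrx, then Zfp639 and Strn). These are descriptions over 8 arrays that share 1 normalization, and any gene that separates the shIRF7 arrays from the controls correlates with the 5 separated members.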

How the data were processed

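The deposited table gives log2 expression for every probe set on each of the 8 arrays. The submitters' processing notes name RMA and Affymetrix Expression Console (version 1.4.1.46). That the authors' values are log2 follows from their range, 1.66 to 18.9. The sources used here give no genome build for the probe sets. All array columns were used. The probe gene table names 1 symbol for 19572 of the 28846 probe sets and none for 9274. For 55 genes with several the one with the highest mean was kept, which left 19505 genes. Symbols and gene order came from the RefSeq table of GRCm38.p6, which matched all 19572 by gene ID.

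Differences were tested across all genes in R 4.3.3 with limma 3.58.1 (lmFit, eBayes, a mean per group over 8 arrays, 5 residual and 2.68 prior degrees of freedom), tested on simulated data, with Benjamini-Hochberg adjustment over all genes and a threshold of 0.05. Both controls means the equally weighted mean of scramble and empty vector. The SE is limma's moderated one. Groups come from the sample titles. No pseudocount or filter was used. A value is called above background past the 95th percentile of its array's negative controls.

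The members and gene lists were chosen with earlier results of these data known. Named were the 10 members, Irf7 and the 3 greatest rises and falls of the other Trim genes. Of each list the genes past the threshold were named, or else the 3 with the greatest difference. Mavs, Jak1 and Jak2 were added after their values had been seen. Alternatives were a filter on dim genes, trend and robust fitting, cyclic loess, the mean of probe sets, all probe sets, controls as 1 group, the replicate block, shIRF7 replicates 2 and 3 averaged, and leaving out each array.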

Additional observations from a re-analysis of the deposited data

How the results depend on the processing

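All 396 recomputed differences of the 9 members (against both controls, scramble and empty vector, under every alternative that gave a value) stayed below 0, and in 395 the side of the threshold was as in the report. The exception was Trim30a with both controls as 1 group of 4 (-4.62, adjusted p = 0.0299), where 1 member passed in place of 0. Irf7 passed there too (adjusted p = 0.0299) and without shIRF7 replicate 1 (-3.31, adjusted p = 0.0254). The count of all genes past the threshold for shIRF7 against both controls, 6 in the report, was 3 with the filter on dim genes, 3 with trend and robust fitting, 28 with controls as 1 group, and 0 with shIRF7 replicates 2 and 3 averaged. Leaving out 1 array gave 0 to 28. It was 28 without shIRF7 replicate 1, 5 without empty vector replicate 1, 3 without shIRF7 replicate 4, 2 without empty vector replicate 2, and 0 without either scramble array or without shIRF7 replicate 2 or 3. Against scramble (1 gene) the filter, trend and robust fitting and the averaged arrays gave 0, and leaving out 1 array gave 0 to 8 (8 without shIRF7 replicate 1, 1 without either empty vector array, 0 without any other). Against empty vector (0 genes) leaving out 1 array gave 0 to 3 (3 without empty vector replicate 2, 1 without shIRF7 replicate 4 or empty vector replicate 1). The cause of these shifts was not tested. The filter left 3 of the 9 members (Trim12c, Trim25 and Trim56), of which 2 did not overlap, since it removed the others by construction. Leaving out 1 array gave 5 to 7 members not overlapping, and a median over the members between -0.95 and -0.70. Groups of fewer arrays separate more easily in any gene. The share of all genes not overlapping is not given for these settings or for the filter, so these counts are descriptions only.

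With the replicate number as a block 0 genes passed against both controls or against scramble in limma (691 and 563 at an unadjusted p under 0.05). Arrays numbered above 2 were all shIRF7, so they did not inform these comparisons, and 2 residual degrees of freedom were left. Differences against both controls in that fit are the means of the within-number differences given above, not a separate result. Whether the block or the fewer informative arrays gave the count of 0 was not tested. Of the members 0 passed, and their median was -1.17. Trim21 was at -1.17 and Trim14 at -0.50 in that fit. Deviations from the group means correlated at 0.757 between scramble and empty vector arrays of the same number, but at -0.31 to -0.16 between shIRF7 and control arrays of the same number. The labels name no shared day or batch, so these arrays share only a number.

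Signal over background limits 7 of the 9 members. Trim30d, Trim12a, Trim14, Trim21 and Trim26 were above background on no array. Trim30a was above it on 0 of 4 shIRF7 arrays (24.7-fold as measured, at least 1.81-fold with the floor) and Trim12c on 1 of 4.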

Other observations

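In 7 of the 9 members shIRF7 replicate 1, the array with the lowest Irf7 value, was the lowest shIRF7 array, beside 30.9% of all genes. This count was chosen after the values had been seen and rests on 4 arrays, with Irf7 above background on 0 of them.

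Among the 51 other Trim genes 4 lay wholly below the controls, beside 2.8% of all genes. Named after their values were seen, they were Trim66, Trim44, Trim30b and Trim38. Trim30b and Trim38 lay under the negative control medians on all 8 arrays. Trim44 measured 8.80 to 9.04 in shIRF7 and 9.33 to 9.68 in the controls (log2 difference -0.58, adjusted p = 0.304 in limma), and by -0.72 among arrays numbered 1 and -0.59 among those numbered 2. It was above background on all 8 arrays.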
